A study of Mus musculus with 5 samples.

Results

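The small-subunit ribosomal proteins were followed here in the nucleus accumbens of cocaine-treated and saline-treated mice. They are the proteins which, together with the 18S ribosomal RNA, build the small subunit (40S) of the cytosolic ribosome. The members were the array spots that the platform annotation gives to exactly 1 gene symbol beginning with Rps and a digit, or to Rpsa or Fau, without the S6 kinases, Rps19bp1 and pseudogenes. They came to 52 of 44290 spots, and to 28 of the 19087 genes that have a spot of their own.

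Male C57BL6 mice went through a conditioned place preference protocol, in which an animal learns to associate a compartment with a drug. One group received cocaine at 15 mg/kg on days 2, 3 and 4 and had a low preference score, per the labels and the series' design text. The other group received saline on days 2, 3 and 4 of the same protocol, and no source used here gives the age of the animals. Each of 5 Agilent whole mouse genome arrays set the total accumbens RNA of 1 cocaine mouse against that of 1 saline mouse, and the cocaine RNA carried Cy5 on 3 arrays and Cy3 on the other 2.

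The 40S subunit binds the messenger RNA and reads its codons, and the large subunit joins it for the synthesis of protein. Messenger RNAs of ribosomal proteins are among the most abundant of any cell, and in mammals they begin with a tract of C and T bases, the terminal oligopyrimidine tract, through which mTORC1 signalling controls their translation. In neurons, Rps6 phosphorylation is widely used as a mark of recent activity, and ribosomal protein messenger RNAs are also found in neuronal processes.

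The values were log2 ratios of the 2 channels, deposited without centring. The array medians over all spots were -0.69, -0.57 and -0.52 with cocaine RNA in Cy5 and 0.53 and 0.60 with it in Cy3. Since this sign change is what a dye offset gives when the swapped arrays have already been turned, all 5 ratios were taken, as the likely reading, to have the same treatment as numerator. Which treatment is the numerator is unknown, so a positive value is called the numerator side and a negative value the denominator side. Of the 32042 spots with 1 gene symbol, 3998 (12.5%) lay above background, taken as a recovered log2 brightness over 7.5. Of the projection neuron markers of this region, 10 of the 13 with a spot were above background, Drd1, Drd2, Penk and Tac1 among them. Ppp1r1b, Bcl11b and Rasd2 had no spot above background. No marker of cortical glutamatergic neurons (5 with a spot, 0 above) or of choroid plexus and ependyma (5 with a spot, 0 above) was, whereas 5 of 8 astrocyte, 4 of 7 oligodendrocyte, 3 of 8 microglial, 1 of 8 endothelial and 3 of 4 blood markers were. In such tissue samples fewer cells of a type and less RNA per cell cannot be told apart.

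The start of the gene is shown for the members whose values on every array are given below by role or by rank, and for Rps2, whose 2 spots differ most on one array. The window covers 20 bases before and 20 after the annotated start (RefSeq, build GRCm38.p6), and the capitals mark the longest run of C and T in it. Fau, Rps6 and Rps27l carry such a run of at least 8 bases, and Rps28, Rpsa, Rps15, Rps3a1, Rps3, Rps19 and Rps2 do not.
Fau (chr19:6057927-6057966, plus strand): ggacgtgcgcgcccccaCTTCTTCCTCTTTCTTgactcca
Rps6 (chr4:86857348-86857387, minus strand): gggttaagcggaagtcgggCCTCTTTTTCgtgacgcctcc
Rps27l (chr9:66946066-66946105, plus strand): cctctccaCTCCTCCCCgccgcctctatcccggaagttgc
Rps15 (chr10:80292411-80292450, plus strand): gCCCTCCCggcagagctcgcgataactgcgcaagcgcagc
Rps2 (chr17:24720043-24720082, plus strand): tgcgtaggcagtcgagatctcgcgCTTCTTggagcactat
Rps3a1 (chr3:86142649-86142688, minus strand): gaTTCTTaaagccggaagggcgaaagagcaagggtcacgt
Rpsa (chr9:120127746-120127785, plus strand): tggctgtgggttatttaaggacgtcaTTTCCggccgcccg
Rps3 (chr7:99483690-99483729, minus strand): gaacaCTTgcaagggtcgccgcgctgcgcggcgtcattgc
Rps19 (chr7:24884572-24884611, plus strand): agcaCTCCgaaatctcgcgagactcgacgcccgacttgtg
Rps28 (chr17:33824543-33824582, minus strand): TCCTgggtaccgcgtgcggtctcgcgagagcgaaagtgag

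The tables used here hold such a window for 25 of the 28 genes, with none for Rps14, Rps20 and Rps29. An uninterrupted run of C and T of at least 8 bases, on the strand of the gene, was found in 12 of the 25 (48%) and in 15.9% of all 27025 promoters in windows of the same length. A run of at least 5 such bases beginning exactly at the annotated start was found in 8 of the 25 (32%) against 4.4% of all promoters. The longest run of a member was between 3 and 16 bases with a median of 7, and the median over all promoters was 5. In Fau the run continues for 13 bases after the start, and in Rps6 for 9, whereas that of Rps27l ends before the start. The annotated start is a single position, the most upstream where a gene has several, and the run moves with it. A match describes these letters only.

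Every member gene gave a measurable signal. Of the 52 member spots, 37 (71.2%) lay above background, and each of the 28 genes had at least 1 of them. The recovered brightness of these 37 spots ran from 8.15 to 14.65 on the log2 scale with a median of 11.40, against a median of 8.35 over all gene spots above background. Brightness is a property of a spot, and it was not used to set one gene against another. Within single genes it differed widely. One Rps15a spot stood at 10.25 and the other at 6.20, although both carry the same transcript accession.

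The 15 spots not above background ran from 6.05 to 7.35 in log2 brightness. They were 1 spot each of Rps2, Rps4x, Rps6, Rps12, Rps13, Rps15a, Rps18, Rps19, Rps20, Rps28 and Rpsa and 2 each of Rps24 and Rps25. Of the 37 member spots annotated with a curated RefSeq messenger RNA, 34 were above background, and of the 15 annotated with another cDNA or EST sequence, 3 were. The 3 were an Rps19, an Rps21 and an Rps28 spot. The dim spots carried the value of their array and dye. Their medians were -0.69, -0.56 and -0.48 on the arrays with cocaine RNA in Cy5, then 0.51 and 0.58 on those with it in Cy3. In 14 of the 15 every sign followed the dye, the exception being the Rps4x spot at brightness 6.65, with -0.98, -0.58, -0.17, -0.20 and 0.25. A level of these transcripts was not read from the 15 spots.

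The first comparison asked whether the subunit's messenger RNAs differed between cocaine and saline mice in the ratios as deposited. None of the 52 member spots passed limma with a dye term at an adjusted p of 0.05, and over all 43790 spots tested the share called was 0%. The smallest adjusted p of a member was 0.731, which was also the smallest of any spot. At an unadjusted p under 0.05 there were 2 member spots, both on the denominator side, against 2.28% of all spots. The median over the 28 genes was -0.44, beside -0.04 over all genes, most of whose spots were not above background. Over spots above background alone it was -0.59, beside -0.46 over all genes. All 37 spots above background had a negative estimate, between -0.79 (Rps7) and -0.19 (Rpsa). Over all 43790 spots tested 25993 estimates were negative, and the share among all gene spots above background is not given here. The standard errors of the 37 spots were wide, with a median of 0.31. The arrays lay far apart. The median deposited ratio of the member genes above background was -1.39, -0.03 and 0.44 on the arrays with cocaine RNA in Cy5, then -1.26 and -0.37 on those with it in Cy3. Over all genes above background the same medians were -1.52, -0.20 and 0.14, then -0.65 and -0.12. Without cocaine-in-Cy5 replicate 1 the median over member genes was -0.22.

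**Figure D1:**
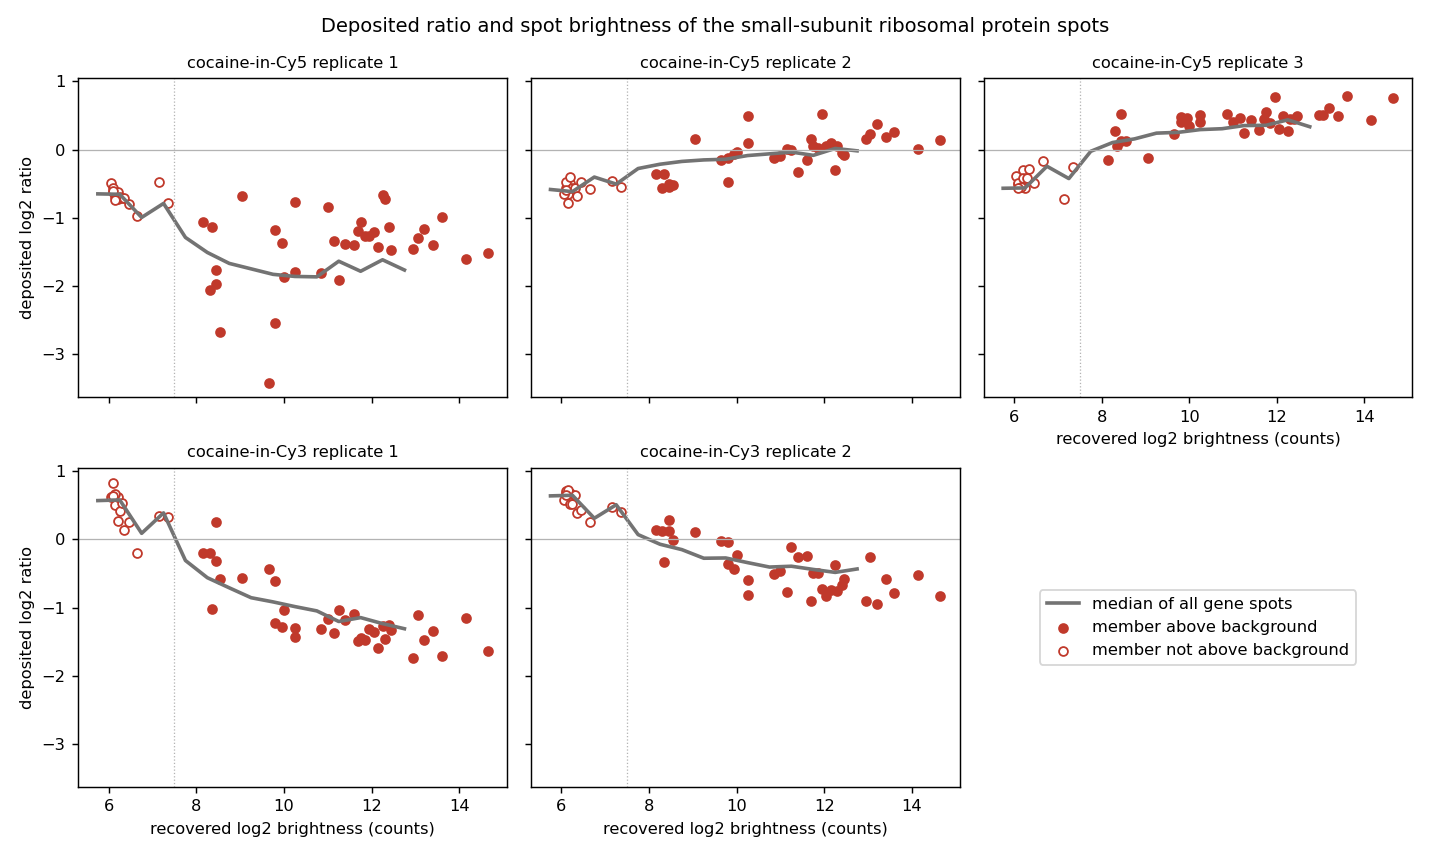
Deposited log2 ratio (vertical axis) against recovered log2 brightness in scanner counts (horizontal axis) for the 52 member spots, with 1 panel per array. Filled points are the 37 spots above background, open points the 15 others, the grey line is the median of all gene spots by brightness, and the dotted line marks 7.5. Open points lie below 0 on the 3 cocaine-in-Cy5 arrays and, but for Rps4x, above 0 on both cocaine-in-Cy3 arrays. The filled points move with the grey line from array to array, lying mostly above it on cocaine-in-Cy5 replicate 1.

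The 2 spots with the smallest p in the deposited ratios belong to Rps28, a small protein of the 40S head near the exit of the messenger RNA channel, and to Rps27l, the paralog of Rps27 that p53 induces. The Rps28 spot (feature 16100) read -0.72, 0.05 and 0.44 on the arrays with cocaine RNA in Cy5, then -1.46 and -0.75 on those with it in Cy3. Its estimate was -0.59 ± 0.21 (SE, n = 5 arrays; limma unadjusted p = 0.0446, adjusted p = 0.731). The Rps27l spot read -1.14, -0.36 and 0.05, then -1.02 and -0.33, with an estimate of -0.58 ± 0.21 (SE, n = 5 arrays; limma unadjusted p = 0.0488, adjusted p = 0.731). Both spots had at least 1 array on either side of 0.

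In the 37 member spots above background, the deposited ratio tended to rise with brightness on cocaine-in-Cy5 arrays and fall on cocaine-in-Cy3 arrays. Across the 37 spots, Spearman's rho between brightness and deposited ratio was 0.24, 0.65 and 0.59 on the arrays with cocaine RNA in Cy5, then -0.73 and -0.72 on those with it in Cy3. These spots share their array, and brightness and ratio come from the same signals, so the coefficients only describe. The trend over all gene spots above background was removed from each array (loess). Afterwards the coefficients were 0.20, 0.43 and 0.07, then -0.24 and -0.42, so the slope was reduced and not gone. All values from here on are log2 ratios after this step.

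The second comparison put the same question to the ratios without the brightness trend. With the trend fitted in this way, the subunit's messenger RNAs lay close to the middle of all genes. None of the 37 spots passed (limma, smallest adjusted p = 0.641), and the share called over all 3998 gene spots above background was 0%. At an unadjusted p under 0.05 there was 1 member spot, Rps14, against 6.98% of all spots. Estimates ran from -0.18 to 0.31 with a median of 0.03, and 23 were positive and 14 negative. Over genes the median was 0.03, with 17 of 28 genes positive, beside -0.001 over all genes, with 1738 of 3497 positive. The members were among the spots that set the trend. With the loess fitted without the cytosolic ribosomal protein spots, the median over member genes was 0.04. The standard error of a member spot had a median of 0.10. The 95% interval of all 37 spots lay within a 2-fold difference either way, and for 32 (86.5%) it lay within 0.5 log2 units of 0, against 88.3% of all spots. Without cocaine-in-Cy5 replicate 1 the median over member genes was -0.004, 13 of 28 genes were positive, and 25 of the 37 spots kept their sign.

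**Figure D2:**
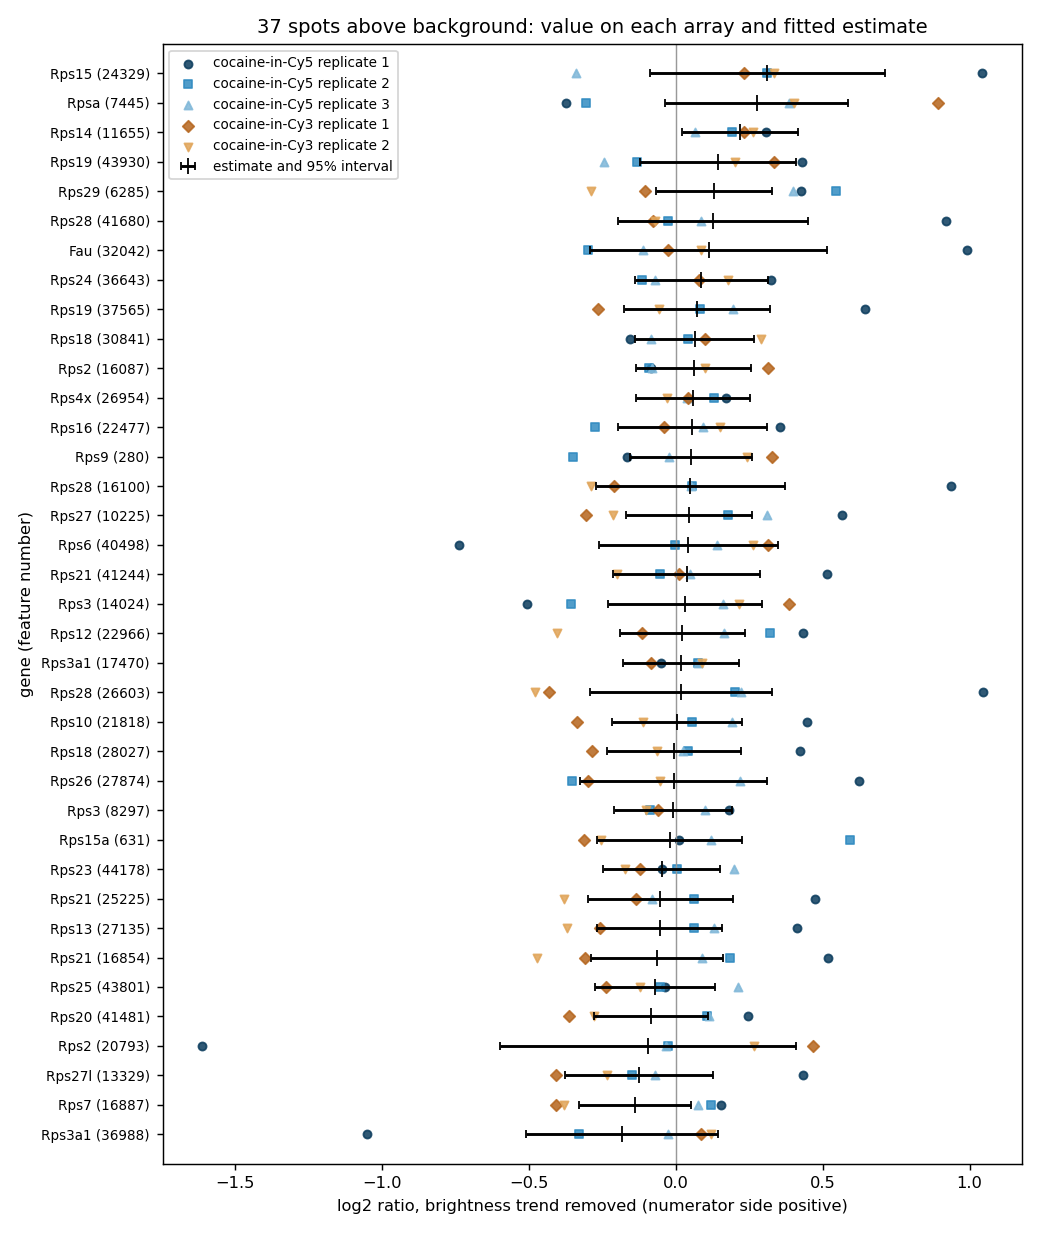
Log2 ratio after removal of the brightness trend (horizontal axis, numerator side positive) for each of the 37 member spots above background (vertical axis, gene and feature number, ordered by estimate). Symbols are the 5 arrays, and the black bar is the limma estimate with its 95% interval. Estimates run from -0.18 to 0.31, and the points farthest from 0 are those of cocaine-in-Cy5 replicate 1.

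The body and platform of the subunit hold the site where the start of the coding region is placed and the entry and exit of the messenger RNA channel. Of 19 listed genes 16 had a spot, with a median of 0.02 over genes, and 8 of the 16 were positive. Rps14, a platform protein beside the exit whose human gene is lost in the 5q- syndrome, read 0.31, 0.19 and 0.07 on the arrays with cocaine RNA in Cy5, then 0.23 and 0.26 on those with it in Cy3. It was the 1 member spot with the same sign on all 5 arrays. That pattern was shown by 1.5% of all spots on the numerator side and by 2.53% on the denominator side, where there were 0 members. Its estimate was 0.22 ± 0.09 (SE, n = 5 arrays; limma unadjusted p = 0.0348, adjusted p = 0.641). Leaving out each array in turn kept it between 0.19 and 0.25, with an unadjusted limma p between 0.0304 and 0.143.

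Rpsa, the laminin receptor protein that sits at the back of the subunit, had the next smallest p. It read -0.37, -0.31 and 0.39 with cocaine RNA in Cy5 and 0.89 and 0.40 with it in Cy3, so that 3 arrays lay above 0 and 2 below. The estimate was 0.28 ± 0.14 (SE, n = 5 arrays; limma unadjusted p = 0.0758, adjusted p = 0.641). Without cocaine-in-Cy3 replicate 1, which held the highest value, it was 0.15, and without cocaine-in-Cy5 replicate 3 it was 0.16. With each of the other arrays left out it ran from 0.33 to 0.40.

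Rps6, the substrate of the S6 kinases downstream of mTORC1, read -0.74, -0.004 and 0.14 on the arrays with cocaine RNA in Cy5, then 0.32 and 0.26 on those with it in Cy3. The estimate was 0.04 ± 0.13 (SE, n = 5 arrays; limma adjusted p = 0.919), and its 95% interval went from -0.26 to 0.35. One array lay far below the rest, and without cocaine-in-Cy5 replicate 1 the estimate was 0.18. With each of the other arrays left out it ran from -0.04 to 0.06. These arrays measured the messenger RNA and not the phosphorylated protein.

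The lowest estimate of all belonged to the second spot of Rps3a1 (feature 36988), a body protein near the exit of the channel. It read -1.05, -0.33 and -0.03, then 0.09 and 0.12, with an estimate of -0.18 ± 0.14 (SE, n = 5 arrays; limma adjusted p = 0.69). The other Rps3a1 spot (feature 17470) lay between -0.08 and 0.09 on every array. The low estimate was therefore not shared by both spots of the gene. At feature 36988 it was -0.04 without cocaine-in-Cy5 replicate 1 and -0.29 without cocaine-in-Cy5 replicate 3.

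Fau, which is made as a fusion of a ubiquitin-like protein to the ribosomal protein eS30, read 0.99, -0.30 and -0.11, then -0.03 and 0.09. Its estimate was 0.11 ± 0.18 (SE, n = 5 arrays; limma adjusted p = 0.848), with 1 array high and the other 4 between -0.30 and 0.09. It was -0.09 without cocaine-in-Cy5 replicate 1, 0.24 without replicate 2 and 0.19 without replicate 3 of that orientation. Rps27a, the ubiquitin fusion, is not analysed here. Rps27 had an estimate of 0.05 ± 0.09 and its paralog Rps27l one of -0.13 ± 0.11 (SE, n = 5 arrays each). Their difference was not tested, and the intervals overlapped. Rps4x, encoded on the X chromosome, had the smallest SD over arrays of the member spots, reading 0.17, 0.13 and 0.04, then 0.04 and -0.03. That SD was 0.08, and its paralog Rps4l is not analysed here.

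The other body proteins had these estimates. Rps7, an inhibitor of Mdm2 outside the ribosome, had -0.14, with 0.16, 0.12 and 0.08 on the arrays with cocaine RNA in Cy5, then -0.41 and -0.38 on those with it in Cy3. Rps24, mutated in some patients with Diamond-Blackfan anaemia, an inherited failure of red cell production, had 0.09. Rps9, at the entry of the channel, had 0.05. Rps23 of the decoding centre and Rps13 had -0.05 and -0.06. Rps15a and Rps26, the latter at the exit of the channel, had -0.02 and -0.01. None of these passed the test.

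The head of the subunit holds the transfer RNAs at their sites together with the body. Of 14 listed genes 11 had a spot, with a median of 0.03 over genes, and 9 of the 11 were positive. Without cocaine-in-Cy5 replicate 1 only 5 of the 11 were. Rps15, a head protein needed for export of the pre-40S particle from the nucleus, had the highest estimate of all members. It read 1.04, 0.31 and -0.34 on the arrays with cocaine RNA in Cy5, then 0.23 and 0.34 on those with it in Cy3, with an estimate of 0.31 ± 0.17 (SE, n = 5 arrays; limma adjusted p = 0.641). The 3 cocaine-in-Cy5 arrays thus covered a wider range than the estimate itself. Without cocaine-in-Cy5 replicate 3 the estimate was 0.48, and without cocaine-in-Cy5 replicate 1 it was 0.14.

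Rps3, which lines the entry of the messenger RNA channel, had 2 spots. Feature 14024 read -0.51, -0.36 and 0.16, then 0.38 and 0.21, with an estimate of 0.03 ± 0.12 (SE, n = 5 arrays; limma adjusted p = 0.931). Feature 8297 read 0.18, -0.09 and 0.10, then -0.06 and -0.10, with an estimate of -0.01 ± 0.09 (SE, n = 5 arrays; limma adjusted p = 0.983). The first spot spread over arrays far more than the second. Rps19, the gene mutated most often in Diamond-Blackfan anaemia, also had 2. Feature 43930 read 0.43, -0.13 and -0.24, then 0.33 and 0.20, with an estimate of 0.14 ± 0.12 (SE, n = 5 arrays; limma adjusted p = 0.699). Feature 37565 read 0.65, 0.08 and 0.19, then -0.26 and -0.06, with an estimate of 0.07 ± 0.11 (SE, n = 5 arrays; limma adjusted p = 0.837). Without cocaine-in-Cy5 replicate 1 these were 0.04 and -0.01. The 3 spots of Rps28 had 0.05, 0.13 and 0.02. None of these estimates passed the test. The remaining head proteins were Rps29 at 0.13, Rps16 at 0.06, Rps12 at 0.02 and Rps10 at 0.003, and Rps20 at -0.08 and Rps25 at -0.07. Rps18 had 0.06 and -0.01 at its 2 spots.

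The signs without the trend were also counted by dye orientation. In 13 of the 37 spots all cocaine-in-Cy5 arrays were above 0 and both cocaine-in-Cy3 arrays below, against 9.35% of all gene spots above background. The opposite arrangement held for 4 spots, against 8.05%. Rps7, Rps29 and Rps20 were among the 13. No member passed for the dye term (limma, 0 of 37 spots, and 0 of all 3998). In the deposited ratios 14 members passed for it, all of them among the dim spots, beside 78.4% of all spots.

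**Figure D3:**
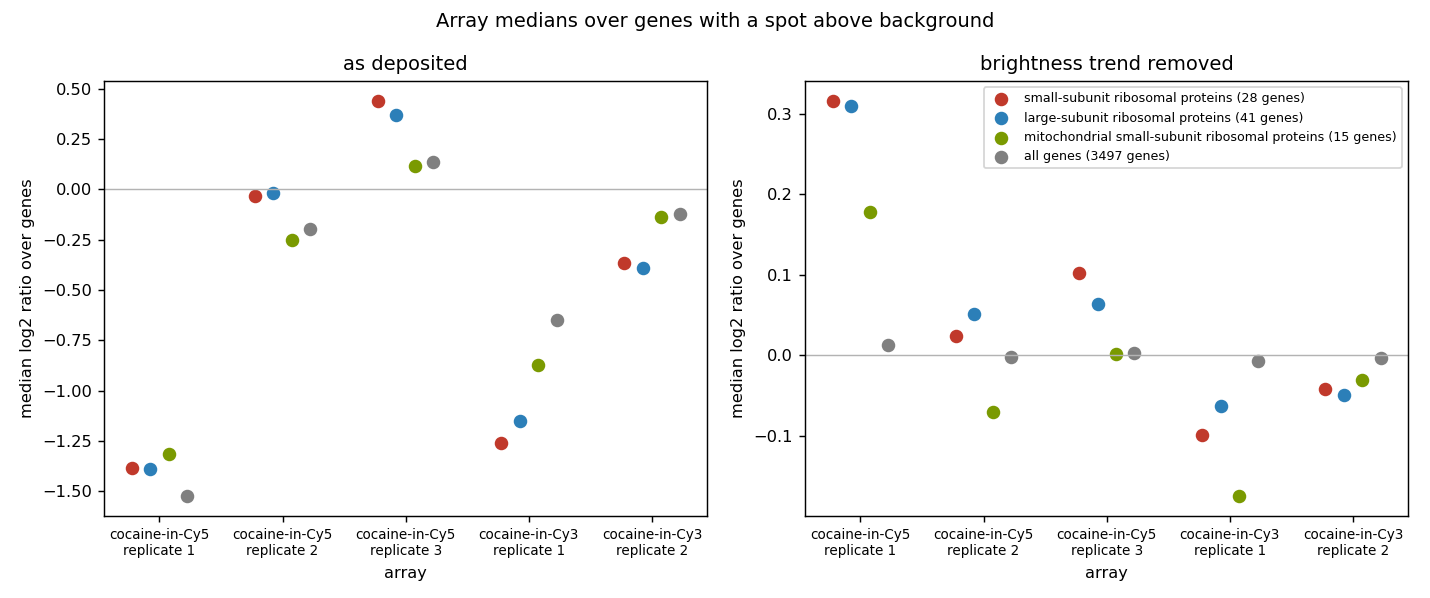
Median log2 ratio over genes with a spot above background (vertical axis) on each array (horizontal axis), as deposited on the left and with the brightness trend removed on the right; the 2 panels have different scales. Colours are the small-subunit, large-subunit and mitochondrial small-subunit ribosomal proteins and all genes. On the right the small subunit runs from -0.10 to 0.32 and stays within 0.04 of the large subunit on every array.

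The small subunit followed the large subunit from array to array. After removal of the trend the small-subunit medians over genes were 0.32, 0.02 and 0.10 on the arrays with cocaine RNA in Cy5, then -0.10 and -0.04 on those with it in Cy3. The large subunit, with 41 of its 48 genes above background, had 0.31, 0.05 and 0.06, then -0.06 and -0.05. Both subunits lay above 0 on every cocaine-in-Cy5 array and below 0 on both others. The mitochondrial small subunit, which serves the ribosome inside the organelle and had 15 of 29 genes above background, had 0.18, -0.07 and 0.001, then -0.18 and -0.03. The fitted medians were 0.04 for the large subunit, with 29 of 41 genes positive, and -0.04 for the mitochondrial list, with 3 of 15 positive. None of these genes passed (0 of 63 and 0 of 18 spots). Rpl34 (-0.26 ± 0.11) and Rpl7 (-0.21 ± 0.10) had the smallest p of the large subunit, and Mrps33 (-0.26 ± 0.13) and Mrps28 (-0.20 ± 0.11) of the mitochondrial list.

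Most genes that make or control the small subunit were not above background, like most genes of the table. Of 35 assembly factors of the 40S subunit 9 were above background, beside 3497 of 19087 over all genes. The assembly factors had a median of 0.02 over genes, with 5 of 9 positive, from -0.10 to 0.25, and 0 passed. The genes named below from each list are those with the smallest p, so they do not stand for their list. Riok1, a kinase of late 40S maturation, had 0.25 ± 0.13, and Emg1, a methyltransferase of the 18S RNA, had 0.16 ± 0.10 (SE, n = 5 arrays each). Of the mTORC1 and S6 kinase list 8 of the 21 genes with a spot were above background, and 0 passed. Their median was -0.05, with 3 of 8 positive, from -0.25 to 0.12. Rptor, the mTORC1 scaffold, had -0.25 ± 0.12, and Rheb, its activator, had -0.22 ± 0.13. Of the other messenger RNAs with a terminal oligopyrimidine tract 15 genes were above background, and 0 passed. Their median was -0.001, with 7 of 15 positive, from -0.32 to 0.20. Eif3e, an initiation factor subunit, had -0.32 ± 0.12, and Npm1, a nucleolar chaperone, had -0.26 ± 0.10. On cocaine-in-Cy5 replicate 1 that list had a median of -0.33, whereas the small subunit had 0.32. All of the lists had 0 calls, as did the whole table.

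In the member spots, cocaine-in-Cy5 replicate 1 stood apart from the other arrays. The SD over the 37 member spots was 0.56 there and between 0.15 and 0.30 on the other 4. Over all gene spots above background it was 0.44 there and between 0.21 and 0.37 on the other 4. On this array 10 member spots (27%) lay above 0.5, against 9.1% of all spots, and 4 (10.8%) lay below -0.5, against 12%. The 10 were the 3 spots of Rps28, 2 of Rps21 and 1 each of Fau, Rps15, Rps19, Rps26 and Rps27. The 4 were Rps2 at -1.61, Rps3a1 at -1.05, Rps6 at -0.74 and Rps3 at -0.51. The deposited median of all gene spots above background was also lowest there, at -1.54. What sets this array apart was not tested.

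**Figure D4:**
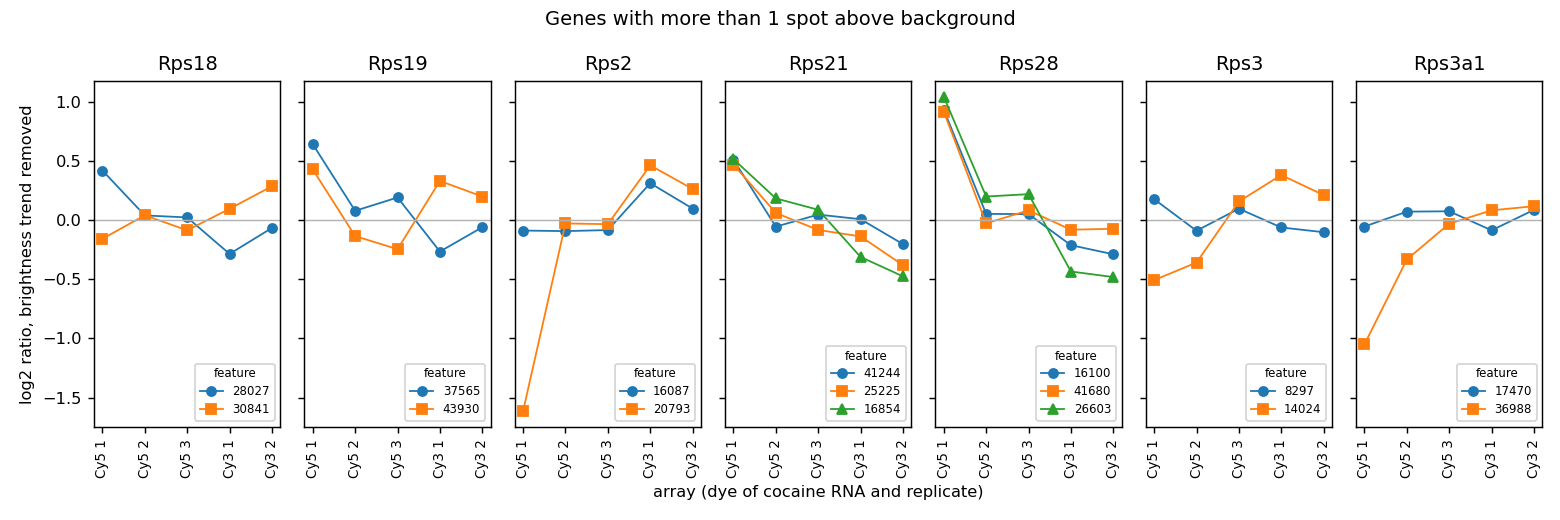
Log2 ratio after removal of the brightness trend (vertical axis) on the 5 arrays (horizontal axis, dye of the cocaine RNA and replicate) for the 7 genes with more than 1 spot above background. Lines join the values of one spot, and spots are named by feature number. On cocaine-in-Cy5 replicate 1 the spots of Rps21 and of Rps28 lie close together, while one spot of Rps2 and one of Rps3a1 lie far below the other spot of the gene.

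The 7 genes with several spots above background show how far a value belonged to the gene. The 3 spots of Rps28 read 0.94, 0.92 and 1.05 on cocaine-in-Cy5 replicate 1, a range of 0.13, and the 3 of Rps21 of the subunit body differed by 0.05. In both genes the high value on that array was thus shared by all spots. On the cocaine-in-Cy3 arrays the spots of Rps28 lay 0.35 and 0.41 apart and those of Rps21 0.32 and 0.27. The 2 spots of Rps2, a body protein at the entry of the channel, differed by 1.53 on that array, with -0.09 at feature 16087 and -1.61 at feature 20793. On the other arrays they differed by 0.05 to 0.17. The spots of Rps3a1 differed by 0.998 there, those of Rps3 by 0.69, those of Rps18 by 0.58 and those of Rps19 by 0.21. The position of each probe in its transcript was not used here. In the fitted estimates the spots of one gene differed by 0.04 (Rps3) to 0.20 (Rps3a1). This was less than on cocaine-in-Cy5 replicate 1 for each gene but Rps21 (0.10 against 0.05). It was not less than on every array.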

How the data were processed

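The starting point was the value table of the series, whose deposited numbers are log2 ratios between both channels of an array. Per the labels' protocols, RNA went through linear amplification and received Cy5 or Cy3, and images were read with Agilent Feature Extraction, per the submitters' processing notes. How background was corrected and signals were normalized is not given in the sources used here. Spots were named through the platform annotation (32042 with 1 symbol, 47 with several and 12201 with none), and 500 spots at 0 on all arrays, with no gene, were left out. Of 238 spots with no gene and extreme ratios, 184 switched sign with the dye and 0 kept 1 sign, so the direction between treatments was taken as shared by all arrays.

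In the 3 columns with full digits, 99.96% of values were logs of fractions of scanner counts in steps of 0.5 (relative tolerance 2e-14), from which the brightness of each spot was estimated. The estimate can be off by a whole common factor. Background spots formed a class near 57 and 88 counts. Ratios were tested with limma 3.58.1 in R 4.3.3 (a mean for the treatment and a term for the dye, leaving 3 residual degrees of freedom, with Benjamini-Hochberg adjustment over all spots tested), as deposited over 43790 spots and, after loess on brightness (span 0.3), over 3998. With 5 arrays an exact sign test on 1 value cannot go below p = 0.0625, and the number of arrays limits the precision. NumPy 2.4.6 and pandas 2.3.3 under Python 3.11.15 served for brightness and sequences. A simpler brightness estimate of the same form was tried on simulated data that shared its assumptions. That trial does not measure the error of the brightness on these arrays.

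Genes given in full were the 2 spots with the smallest p in each fit, the highest and lowest estimates, and Rps6, Fau, Rpsa, Rps3 and Rps19. The members, lists and tests were chosen with earlier results of these data known. The series' design text calls the arrays independent, but the titles give the cocaine RNA of cocaine-in-Cy5 replicates 1 and 2 the same animal code, once with a suffix, so whether they share an animal is unknown. Alternatives were each array left out, those arrays averaged, no dye term, array weights, Cy5 over Cy3 on every array, other normalizations, brightness limits and loess settings.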

Additional observations from a re-analysis of the deposited data

Results flagged for a closer look

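In 3 of the 37 member spots above background 1 array lay apart from the other 4 (gap to the nearest array over the whole range above 0.71), which also held for 4.3% of all gene spots above background. All 3 were on cocaine-in-Cy5 replicate 1. The Rps28 spot at feature 16100 read 0.936 there, with the next array at 0.055 (gap over range 0.72). The Rps28 spot at feature 41680 read 0.921, with the next array at 0.085 (0.836). The Rps2 spot at feature 20793 read -1.614, with the next at -0.032 (0.761). Without that array the estimates of the 3 spots were -0.10, -0.02 and 0.17, each with the sign turned.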

How the results depend on the processing

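No member was called in the ratios without the brightness trend under any alternative. In the deposited ratios 14 members were called when the ratios were read as Cy5 over Cy3 on every array (34346 of all spots called), and 14 when the 3 cocaine-in-Cy5 arrays were tested alone against 0 (33630 called). In the second case all 14 were dim spots, and no spot above background was among them. The other alternatives called 0 members in the deposited ratios. The median over member genes stayed between -0.59 and -0.22 there when each array was left out, with the smallest size without cocaine-in-Cy5 replicate 1, and was 0.004 under the Cy5 over Cy3 reading. Without the trend it ran from -0.004 (without cocaine-in-Cy5 replicate 1) to 0.05 when arrays were left out. It was -0.03 with array weights, 0.14 on the 3 cocaine-in-Cy5 arrays alone and 0.18 with the loess fitted over all spots, so its direction depends on the setting. Quantile normalization moved the deposited median of all genes from -0.04 to -0.18 and left the members at -0.44. Leaving out each array gave 4, 0, 2, 0 and 0 member spots at an unadjusted limma p under 0.05, the 4 without cocaine-in-Cy5 replicate 1 being Rpsa, Rps14, Rps27l and Rps6 and the 2 without cocaine-in-Cy5 replicate 3 being Rps14 and Rps15. The smallest adjusted p of a member in these fits was 0.404. Each ratio is already a comparison within a pair of mice, because an array holds 1 cocaine and 1 saline mouse. The replicate numbers were given in accession order and were not used to pair arrays.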

Other observations

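Markers of other cell types and of the region's neurons stood beside the members as follows, without the trend and over genes with a spot above background. The projection neuron list had a median of -0.055 with 4 of 10 genes positive, from -0.19 (Pde10a) to 0.32 (Drd1). The astrocyte list had -0.025 with 2 of 5 positive, the oligodendrocyte list 0.10 with 3 of 4 positive, from -0.095 (Mbp) to 0.35 (Mal), and the microglial list 0.16 with 2 of 3 positive. The 1 endothelial gene, Flt1, had -0.32, and the 3 blood genes had 0.08 (Hbb-bt), 0.31 (Hba-a1) and 0.41 (Hba-a2). No gene of these lists passed (limma, 0 calls). Their part in the values of the members was not tested.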
